A study of Mus musculus with 4 samples.

Results

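The 8 genes examined were the luminal keratins Krt7, Krt8, Krt18 and Krt19 and the basal keratins Krt5, Krt14, Krt15 and Krt17, taken by symbol from a count table of 24411 gene symbols. All 8 were in the table and all 8 passed the low-count filter. They were read in RNA sequencing libraries of whole sublingual glands, mucous salivary glands, from female mice on a C57BL/6J background that were homozygous for a knockout of Nkx2.3 (Nkx2-3, a homeobox gene). All 4 libraries carried the knockout, so no gland with intact Nkx2-3 was compared. There were 2 libraries at 8 weeks of age (replicates 1 and 2) and 2 at 32 weeks (replicates 3 and 4). Whether a library came from 1 animal or from pooled glands is not stated in the labels, so the spread between libraries may be technical. In whole-gland RNA, fewer cells of a type and less RNA per cell cannot be told apart.

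Keratins are the intermediate filament proteins of epithelium, and a filament forms only when an acidic type I keratin pairs with a basic type II keratin. Krt8 and Krt18 are the primary pair of simple epithelia, including secretory acini and ducts, and Krt7 (type II) and Krt19 (type I) are added mainly in duct-like epithelium. Krt5 and Krt14 form the pair of basal and myoepithelial cells, the flattened cells that wrap acini and ducts, where Krt17 and Krt15 are further type I partners.

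The libraries did not sort by age. Total counts were 12925869 to 16484772 per library. Nkx2-3 itself kept 21 to 31 counts per library; the labels do not say which of its exons the knockout removed, so these counts check nothing. The gland's own secretory genes were present in every library, with Aqp5, the acinar water channel, at 242 to 602 CPM (counts scaled to library size with TMM factors) and Muc19, its gel-forming mucin, at 12020 to 20280 CPM. Across the 12810 genes tested, Pearson's r of log2 CPM was 0.957 for the 8-week pair and 0.978 for the 32-week pair, while the closest pair, 8-week replicate 1 with 32-week replicate 4, reached 0.983. Genes are not independent replicates, so these r values only describe the libraries. The lymphocyte marker list summed to 82.7 CPM in 8-week replicate 2 and to 534 to 951 CPM in the other libraries.

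The coding sequences of the 8 keratins resemble each other, and this bears on how reads could be assigned. Within a type, pairs of members were 60.2% to 82.9% identical over their aligned coding bases, and across types 54.5% to 59.5%. A stretch of 45 coding bases at the conserved end of the rod domain is shown for the 5 type I members, because this conserved region holds most of the longest run that any members share. It was read from the GENCODE vM1 transcripts of NCBIM37, the assembly that mm9 names, and capitals mark bases that vary among these 5 members.
Krt18 (type I): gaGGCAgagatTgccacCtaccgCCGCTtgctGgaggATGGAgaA
Krt19 (type I): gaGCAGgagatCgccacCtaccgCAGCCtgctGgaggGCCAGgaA
Krt14 (type I): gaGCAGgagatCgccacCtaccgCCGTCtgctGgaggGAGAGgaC
Krt15 (type I): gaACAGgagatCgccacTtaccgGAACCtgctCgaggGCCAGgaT
Krt17 (type I): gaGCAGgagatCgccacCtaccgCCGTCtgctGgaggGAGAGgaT
Among the 5 type I members 18 of the 45 bases varied.

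Krt14 and Krt17 were the closest pair of members, at 82.9% identity over 1301 aligned coding bases. They shared an exact run of 71 bases, the longest between any members, which is shown because a read of 50 bases inside it could come from either gene. In capitals is the part that also lies in the stretch above.
Krt14 and Krt17, shared run: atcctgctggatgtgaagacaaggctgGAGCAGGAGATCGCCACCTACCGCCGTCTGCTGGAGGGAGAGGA
Of the 50-base windows of the Krt14 transcript 14.4% were found elsewhere in the genome, in Krt16 and Krt17, and of the Krt17 transcript 3.99%. Krt16 had 0 counts in every library, so few reads were assigned to that gene. Neither the read length nor the rule for multi-mapping reads is stated in the labels, and the window of 50 bases was chosen after the files had been examined.

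Krt8 stood apart in this respect, because 54.5% of its 50-base windows and 29.4% of its 100-base windows occurred at another place in the genome. That place is a copy without introns on chromosome 7 (NCBIM37, 24142113 to 24143830, plus strand), inside the gene Nlrp4e but overlapping none of its annotated exons. The copy was 98.8% identical to the Krt8 transcript over 1717 aligned bases. Nlrp4e had 0 counts in 3 libraries and 1 count in 32-week replicate 4. As the copy lies outside its annotated exons, reads placed there may not be counted for Nlrp4e, so these counts check nothing. If reads that map to several places were dropped, Krt8 would be counted too low, and the sources used here do not say whether they were. For the other members the shares of 50-base windows found elsewhere were 1.29% for Krt7, 0.74% for Krt18, 0% for Krt19, 6.49% for Krt5 and 0.666% for Krt15.

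All 8 genes lie in the keratin clusters of chromosomes 15 and 11. On chromosome 15 (NCBIM37) are Krt7 (101241474 to 101260744, plus strand), Krt5 (101537501 to 101543322, minus strand), Krt8 (101827142 to 101834773, minus strand) and Krt18 (101858647 to 101862457, plus strand), the one type I member outside the type I cluster. On chromosome 11, all on the minus strand, are Krt15 (99993072 to 99997263), Krt19 (100002124 to 100009979), Krt14 (100064476 to 100068862) and Krt17 (100117531 to 100122343).

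As a class, the luminal keratins were more abundant than the basal ones in every library, and Krt18 made up most of the signal. Levels are compared between genes as CPM per kilobase of the longest coding transcript. Krt18, the type I partner of Krt8, averaged 542 ± 67.5 CPM per kilobase (SD over all 4 libraries) and was highest in all of them. Krt8 followed at 96.0 ± 7.07, and Krt14, the basal type I keratin, at 30.6 ± 5.71. Krt17 (15.2 ± 3.47) and Krt7 (13.4 ± 3.39) were within each other's spread and exchanged places in 8-week replicate 2. Krt5, the basal type II keratin, averaged 5.21 ± 0.515 and Krt19 averaged 3.83 ± 2.61, and these neighbours also overlapped, with Krt5 above Krt19 in 3 of 4 libraries. Krt15 was lowest in every library, at 0.723 ± 0.314. Krt18 exceeded Krt8, Krt8 exceeded Krt14, Krt14 exceeded Krt17, Krt7 exceeded Krt5 and Krt19 exceeded Krt15 in 4 of 4 libraries each. The place of Krt7 rests on its long transcript of 4094 bases, because with the median of its coding transcripts (2368 bases) it averaged 23.2 ± 5.86 and lay above Krt17 in 4 of 4 libraries.

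**Figure D1:**
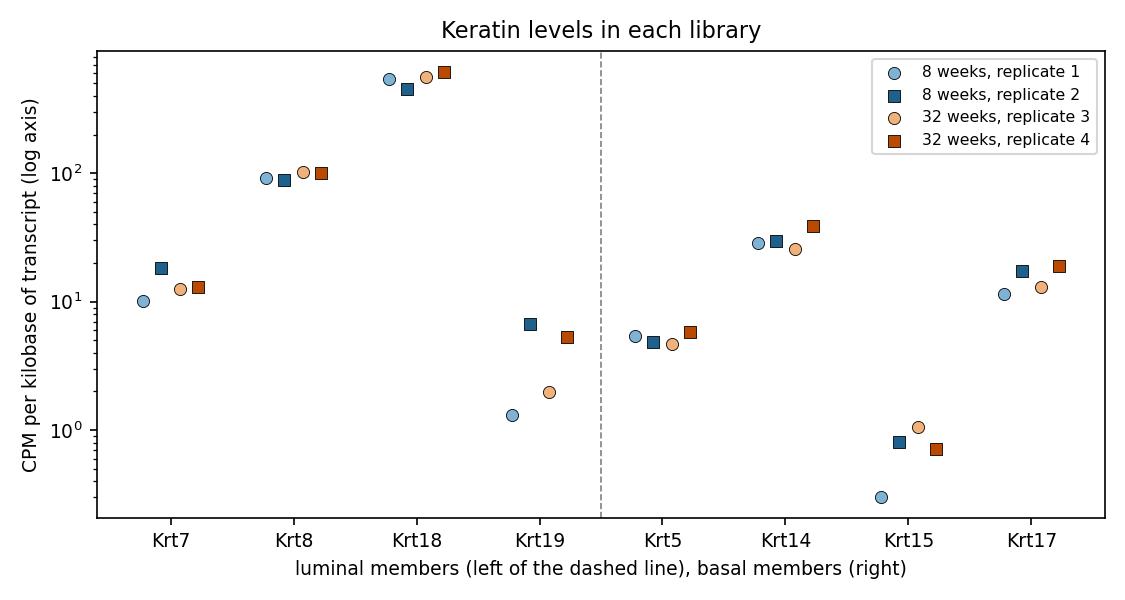
Level of each keratin in each library, as CPM per kilobase of the longest coding transcript on a log axis, with 1 point per library and the luminal members left of the dashed line. Krt18 lies between 452 and 614 and Krt15 between 0.304 and 1.06.

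Among the luminal keratins, Krt18 stood at 755 and 633 CPM in the 8-week pair, with 789 and 859 CPM in the 32-week pair. Krt8, its type II partner, stood at 165 and 160 CPM (8 weeks), against 186 and 182 CPM (32 weeks). For both genes the 32-week libraries were above the 8-week libraries. With total counts in place of TMM scaling this separation was lost for both, since Krt8 then stood at 173 and 162 CPM in the 8-week pair, with 163 and 194 CPM in the 32-week pair, and Krt18 at 791 and 643 CPM and at 693 and 917 CPM. Of the 12810 genes tested, 28.6% had no overlap between the ages and 14.4% were higher in both 32-week libraries, so 2 of 8 keratins is close to the background. A further 14.2% of tested genes, and 0 of 8 keratins, were lower in both.

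Krt7 and Krt19 differed most between libraries of 1 age among the luminal members. Krt7 had 41.7 and 74.5 CPM (8 weeks), against 51.1 and 52.9 CPM (32 weeks). It was highest in 8-week replicate 2 and nearly equal at 32 weeks. Krt19, the smallest keratin, had 2.07 and 10.6 CPM in the 8-week pair, with 3.11 and 8.43 CPM in the 32-week pair, from 28, 153, 45 and 145 counts in that order. It was high in 8-week replicate 2 and 32-week replicate 4 and low in the other 2 libraries, 1 of each age. The 95% Poisson intervals, which cover counting error only, were 1.37 to 2.99 and 2.27 to 4.16 CPM in the low libraries and 8.96 to 12.4 and 7.12 to 9.92 CPM in the high ones, so the gap exceeded counting error.

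Among the basal keratins, Krt14 had 48.3 and 50.3 CPM (8 weeks), against 43.3 and 65.8 CPM (32 weeks). Krt17, a type I keratin of basal and myoepithelial cells, had 17.9 and 27.1 CPM in the 8-week pair, with 20.3 and 29.2 CPM in the 32-week pair. Both were highest in 32-week replicate 4, and for both the ages overlapped. Krt5 had 11.8 and 10.7 CPM (8 weeks), against 10.3 and 12.8 CPM (32 weeks), and was the steadiest basal member. Krt15, a keratin of basal cells in stratified epithelium, had 0.517 and 1.38 CPM in the 8-week pair, with 1.80 and 1.22 CPM in the 32-week pair, from 7 to 26 counts. Its lowest library, 8-week replicate 1, had a 95% Poisson interval of 0.208 to 1.06 CPM, against 1.17 to 2.63 CPM in its highest.

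The members differed widely in how much they varied over the 4 libraries. The range of log2(CPM + 0.1), highest minus lowest library, was 0.22 for Krt8, 0.31 for Krt5 and 0.44 for Krt18, below the median of 0.54 over all tested genes. It was 0.60 for Krt14, 0.70 for Krt17, 0.84 for Krt7, 1.62 for Krt15 and 2.30 for Krt19. A range as wide as that of Krt19 or wider was found in 0.999% of tested genes, and one as narrow as that of Krt8 or narrower in 8.37%. Krt19 was 5.11-fold higher in its highest than in its lowest library, while Krt18 differed 1.36-fold.

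**Figure D2:**
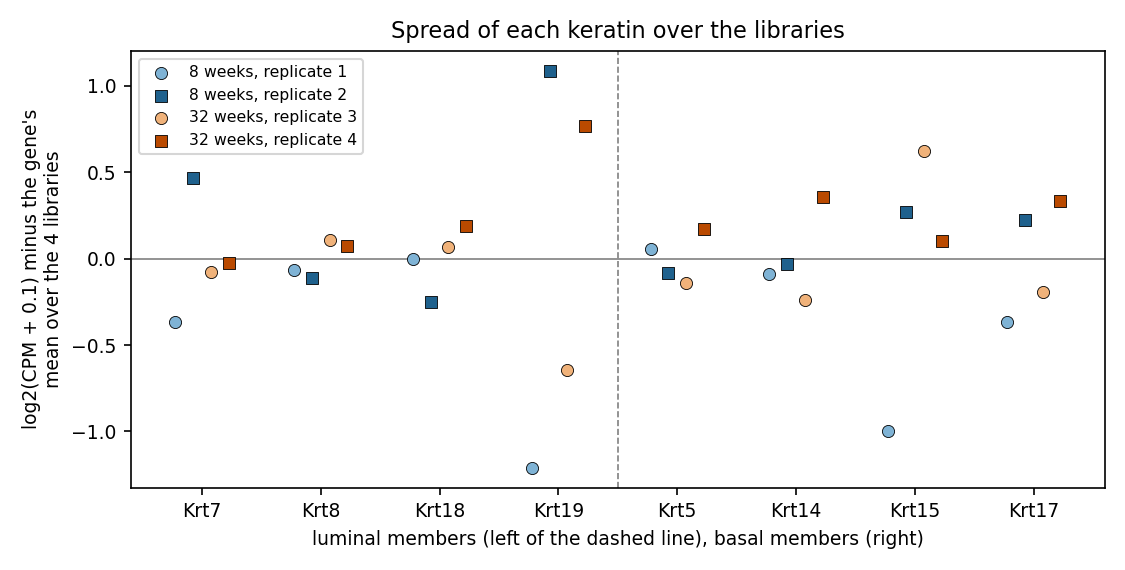
Each keratin's log2(CPM + 0.1) in each library minus its mean over the 4 libraries, with 1 point per library and the luminal members left of the dashed line. Krt19 spans 2.30 and Krt8 spans 0.22, and the 2 ages are mixed for all members but Krt8 and Krt18.

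Both main pairs held more of the type I than of the type II transcript in every library. The ratio of Krt18 to Krt8, per kilobase, was 5.90 and 5.11 (8 weeks), against 5.47 and 6.09 (32 weeks). Counting as length only the windows found nowhere else in the genome, which assumes that reads fitting several places were dropped, this ratio was 2.72 and 2.36 in the 8-week pair, with 2.53 and 2.82 in the 32-week pair. The size of the Krt18 excess therefore depends on how reads from the chromosome 7 copy were counted, and its direction was the same with both lengths. The ratio of Krt14 to Krt5 was 5.27 and 6.06 (8 weeks), against 5.43 and 6.63 (32 weeks). Over all members the type I sum exceeded the type II sum 4.54-fold to 5.67-fold. The ages overlapped in each of these ratios, which compare genes within a library and so do not depend on the scaling between libraries.

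**Figure D3:**
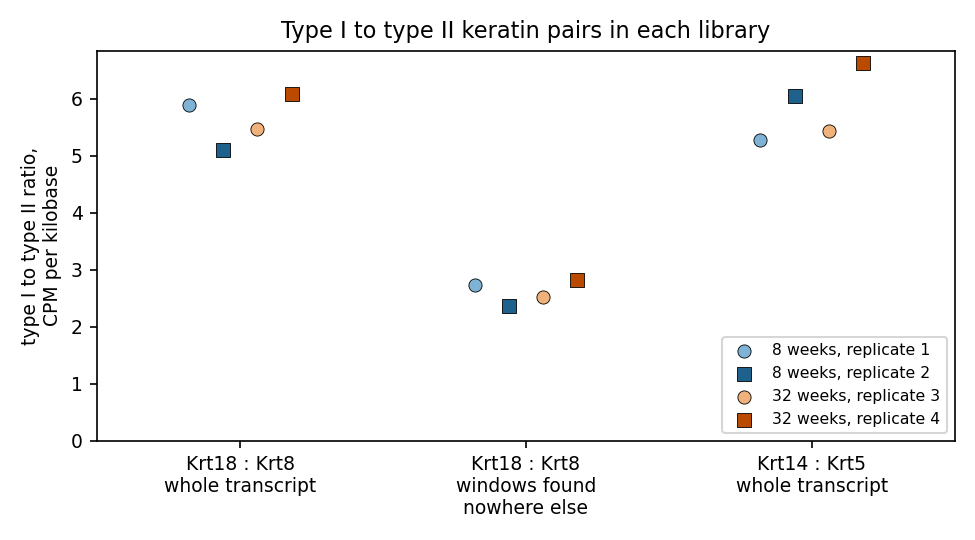
Ratio of the type I to the type II keratin of a pair in each library, from CPM per kilobase, with 1 point per library. Krt18 to Krt8 is 5.11 to 6.09 over the whole transcript and 2.36 to 2.82 over windows found nowhere else, and Krt14 to Krt5 is 5.27 to 6.63.

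Set against each other within each library, the luminal keratins summed to 10.7 to 15.4 times the basal ones. The luminal sum was 642 and 566 CPM per kilobase in the 8-week pair, with 681 and 733 in the 32-week pair, a separation that, as for Krt18, was absent with total counts only. The basal sum was 45.7 and 52.8 CPM per kilobase (8 weeks), against 44.3 and 64.1 (32 weeks). The luminal to basal ratio was 14.1 and 10.7 in the 8-week pair, with 15.4 and 11.4 in the 32-week pair. It was high in 8-week replicate 1 and 32-week replicate 3 and low in the other libraries, so each age held 1 high and 1 low library. The mean over ages was 12.4 ± 2.36 at 8 weeks and 13.4 ± 2.78 at 32 weeks (SD, n = 2), a difference smaller than the spread within an age.

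The ratio of sums was largely that of Krt18 to Krt14. Krt18 made up 80.0% to 84.0% of the luminal sum and Krt14 56.1% to 62.2% of the basal sum. Without these 2 genes the ratio was 5.97 and 4.90 (8 weeks), against 6.25 and 4.69 (32 weeks), again with 1 high and 1 low library at each age. Giving each gene equal weight turned the order of the libraries around. The mean log2(CPM + 0.1) of the 4 luminal members minus that of the 4 basal members was 2.70 and 2.96 in the 8-week pair, with 2.61 and 2.77 in the 32-week pair, now highest in 8-week replicate 2. On this scale Krt7 and Krt19, both highest there, count as much as Krt18. The age difference was -0.14 in the mean log2 difference and 0.11 in the log2 of the ratio of sums, so the 2 summaries pointed in opposite directions, each within the pooled spread between libraries of an age (0.155 and 0.289).

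**Figure D4:**
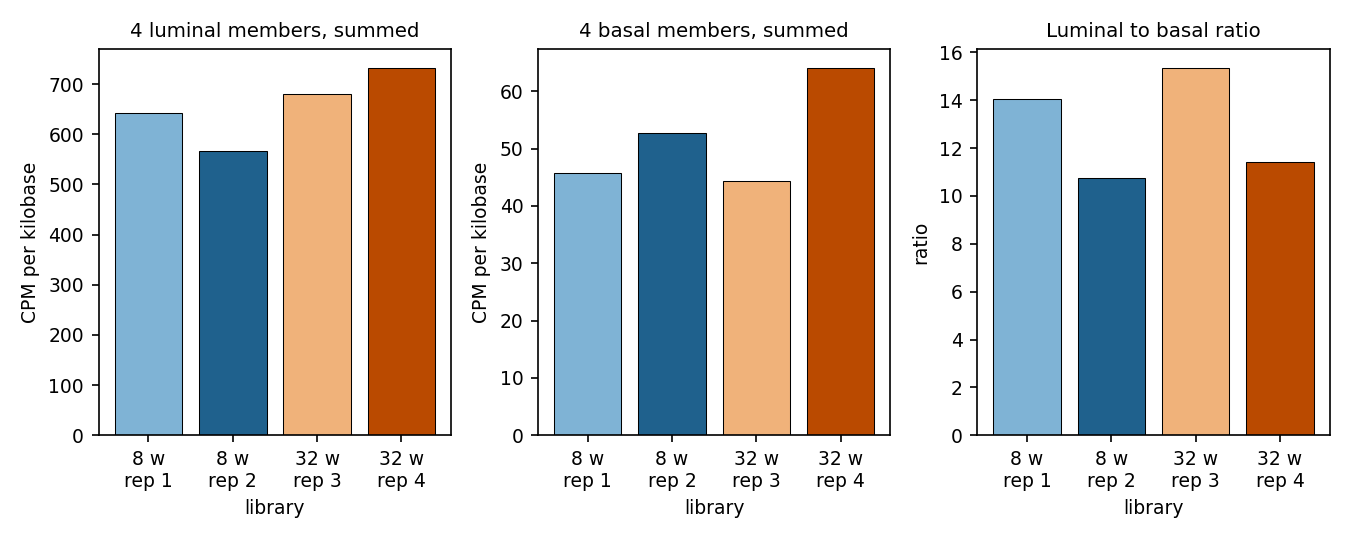
Summed CPM per kilobase of the 4 luminal and of the 4 basal keratins, and the ratio of the 2 sums, with 1 bar per library. The ratio is 14.1 and 15.4 in 8-week replicate 1 and 32-week replicate 3 and 10.7 and 11.4 in 8-week replicate 2 and 32-week replicate 4.

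No keratin passed the test of the age comparison, which asks whether expression in the knockout gland differs between 8 and 32 weeks. With edgeR's quasi-likelihood test 0 of 8 keratins reached an adjusted p of 0.05 (each had adjusted p = 0.999), and none had an unadjusted p under 0.05. Over all tested genes 0 of 12810 (0%) passed, with 174 at an unadjusted p under 0.05. DESeq2 and limma-voom also called 0 of 8 keratins, and over all genes DESeq2 called 3 (89 at an unadjusted p under 0.05) and limma-voom 0 (177). The log2 fold change, 32 weeks over 8 weeks, was positive for 6 keratins and negative for 2, with a median of 0.14, against a median of -0.01 over all tested genes, of which 48.3% were positive.

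By class, the luminal members had a median log2 fold change of 0.03 and were divided 2 to 2, with Krt19 at 0.14 in limma-voom. The 4 basal members were positive with a median of 0.14, except that Krt5 was -0.034 with total counts only. For Krt18 the log2 fold change was 0.25 (SE 0.26, 95% interval -0.35 to 0.85). For Krt8 it was 0.18 (SE 0.21, interval -0.30 to 0.66). Krt7 had -0.16 (interval -0.83 to 0.50) and Krt19 had -0.13 (interval -1.78 to 1.53), the widest interval of the 8. Krt5 had 0.04 (interval -0.47 to 0.55), Krt14 had 0.15 (interval -0.42 to 0.71), Krt17 had 0.14 (interval -0.50 to 0.78) and Krt15 had 0.65 (interval -0.65 to 1.94). Each interval includes 0 and, for all but Krt15 and Krt19, ends short of a 2-fold difference in either direction. The signs of Krt5, Krt7, Krt14, Krt17 and Krt19 changed when single libraries were left out, and those of Krt8, Krt15 and Krt18 did not. Krt19 moved most, to 1.5 without 8-week replicate 2 and to -1.02 without 32-week replicate 4. Krt15 had 1.53 without 8-week replicate 2 and 0.12 without 8-week replicate 1, and Krt7 had 0.32 and -0.52 in the same order.

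**Figure D5:**
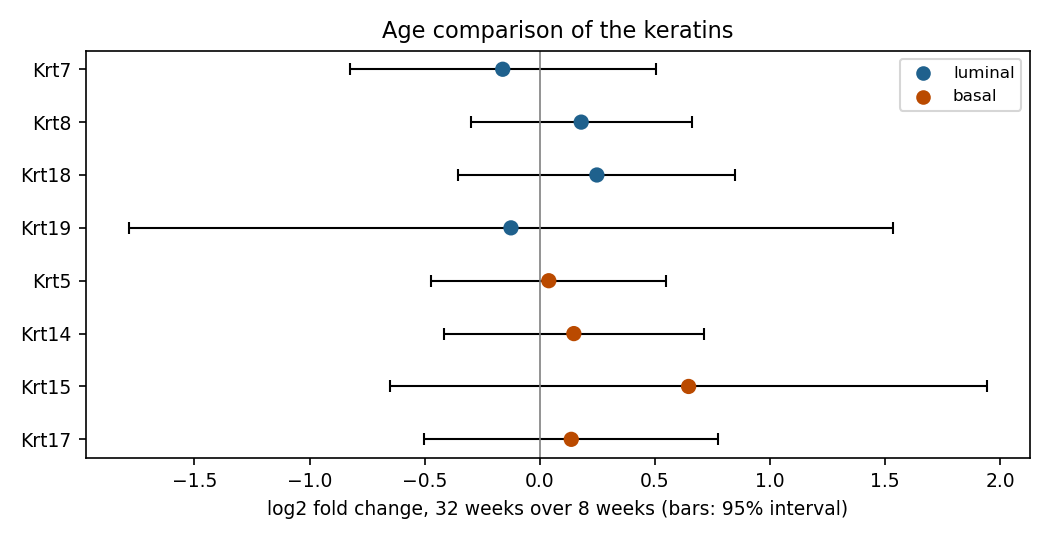
Log2 fold change of each keratin, 32 weeks over 8 weeks, as points with 95% intervals from edgeR, with luminal members in blue and basal members in orange. All 8 intervals cross 0, from 0.04 for Krt5 with a narrow interval to -0.13 for Krt19 with the widest.

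Markers of the cells that carry these keratins were set beside them. The summed duct marker list was 3070 and 5786 CPM (8 weeks), against 3380 and 2395 CPM (32 weeks), highest in 8-week replicate 2, where Krt7 and Krt19 were highest too. Klk1, a duct kallikrein, which had the most CPM of this list, stood at 2005 and 4327 CPM in the 8-week pair, with 2175 and 1309 CPM in the 32-week pair. Klk1 made up most of that sum, and both were lowest in 32-week replicate 4. Krt7 and Krt19 were not lowest there, at 52.9 and 8.43 CPM, but in 8-week replicate 1, at 41.7 and 2.07 CPM. The list's members did not share 1 order: of 18, 10 were highest in 8-week replicate 2, while Ltf (lactoferrin), Spdef and Gstt1 were highest in 32-week replicate 4 and Kcnn4, Spdef, Elf5 and Clic6 were lowest in 8-week replicate 2. Ltf had 22.4 and 14.6 CPM in the 8-week pair, with 11.3 and 57.9 CPM in the 32-week pair. Whether Spdef and Kcnn4 mark ducts in this gland was not tested. The myoepithelial list summed to 676 and 739 CPM (8 weeks), against 808 and 963 CPM (32 weeks). Its highest value was in 32-week replicate 4, as for Krt14, Krt17 and Krt5. Krt15 was highest in 32-week replicate 3 instead, where Krt14 and Krt5 were lowest. In the myoepithelial list Acta2 (contractile actin) had 207 and 275 CPM in the 8-week pair, with 288 and 291 CPM in the 32-week pair. Tagln had 105, 106, 116 and 178 CPM in the same order, and Oxtr was at 0 to 2 counts. All 9 tested myoepithelial genes had a positive fold change (median 0.32) and 0 passed. So did all 8 tested endothelial genes (median 0.27), of which 0 passed. Whether the contractile genes of the myoepithelial list came from myoepithelial cells or from vessel muscle was not tested. Of 17 tested duct genes 6 were positive and 11 negative (median -0.10). Of 13 acinar genes 9 were positive and 4 negative (median 0.28), and 0 of either list passed. Slc12a2 is counted in both of these lists. Over all tested genes 48.3% were positive. The part of duct and myoepithelial cell number in the keratin values was not tested.

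Markers of other tissues that could bring keratins into the sample ranged from genes at 0 in every library to Egf, with 2121 to 3742 counts. Of 12 markers of stratified oral and skin epithelium, Ivl, Sprr1a, Sprr3 and Dsg1a were at 0 in every library. Krt13 and Lor had 1 count in 1 library each, Krt1 had 1 or 2 counts and Krtdap 0 to 3. Krt4 had 6 to 17 counts per library and passed the low-count filter. The list's sum of 22.2 to 27.2 CPM came mostly from Krt10 (8.63 to 14.7 CPM), Trp63 (9.02 to 10.7 CPM) and Sbsn (2.58 to 3.55 CPM), of which Trp63, the basal cell transcription factor, is also a marker of the gland's own basal cells. Of 6 mesothelium markers, Upk3b and Lrrn4 were at 0 in every library, and Upk1b and Wt1 had 0 to 3 counts. Msln was present at 17.7 CPM in 32-week replicate 3 and at 36.2 to 39.0 CPM in the others, and the part of mesothelium in the keratin values was not tested. Endothelial markers summed to 44.3 to 60.6 CPM and skeletal muscle markers to 3.10 to 7.39 CPM. Adipocyte markers summed to 73.1 CPM in 8-week replicate 1 and to 26.8 to 40.4 CPM elsewhere. Of the 7 adipocyte genes, 6 were highest in 8-week replicate 1 and 1 in 32-week replicate 4. Secretory genes of the submandibular and parotid glands summed to 379 and 288 CPM (8 weeks), against 168 and 133 CPM (32 weeks). Of the 6 genes of that list that were tested, 0 had a positive and 6 a negative fold change (median -1.21), against 48.3% positive over all genes. In the edgeR test 0 passed and 3 had an unadjusted p under 0.05, against 174 of all 12810 genes. The 3 were Amy1, Klk1b9 and Klk1b22. Klk1b22 had 11.6 and 8.42 CPM in the 8-week pair, with 2.35 and 2.21 CPM in the 32-week pair. Egf, epidermal growth factor, which had the most CPM of the list, stood at 159 and 258 CPM in the 8-week pair, with 157 and 123 CPM in the 32-week pair. Klk1b9, a kallikrein, was highest in 8-week replicate 2 as well, at 15.5 CPM against 3.96 to 4.63 CPM elsewhere. Smr3a had 0 counts in all libraries but 8-week replicate 1, which had 674, and Amy1, salivary amylase, had 152 CPM there and 1.63 to 2.01 CPM elsewhere. The library of 8-week replicate 1 had the lowest Krt7, Krt15, Krt17 and Krt19 of the 4, and the part of other gland or adipose tissue in those values was not tested.

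The other epithelial keratins were few. Of the 19 found, 4 passed the low-count filter and 7 were at 0 in every library (Krt2, Krt6b, Krt9, Krt12, Krt16, Krt24 and Krt76), which allows at most 0.221 CPM. Krt23, a type I keratin, was the exception at 93.8 and 81.8 CPM in the 8-week pair, with 86.4 and 90.9 CPM in the 32-week pair. Per kilobase it averaged 56.4, which places it between Krt8 and Krt14. Krt10, the suprabasal type I keratin, averaged 5.42 CPM per kilobase, close to Krt5, and Krt80 0.326. In this list 2 tested genes had positive and 2 negative fold changes, and 0 passed. Krt6a, the stress-inducible partner of Krt17 in stratified epithelium, had 2 counts in 32-week replicate 4 and 0 elsewhere.

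Genes that anchor keratin filaments were present and 0 of them passed the age test. Of 13 tested desmosome and plakin genes 7 were positive and 6 negative (median log2 fold change 0.01). Jup (plakoglobin) stood at 139 to 155 CPM, Perp at 97.3 to 107 CPM and Dsg2 at 83.8 to 105 CPM. Dsg1a and Dsg3, the desmogleins of stratified epithelium, were at 0 in every library, while Dsc3 had 24 to 43 counts and Pkp1 41 to 102. In the edgeR test Dsc3 was the list's 1 gene with an unadjusted p under 0.05 (log2 fold change -0.96), against 174 of all 12810 genes. Of 8 hemidesmosome and laminin-332 genes, which tie basal keratins to the basement membrane, 5 were positive and 3 negative (median 0.0026). Itga6 stood at 85.6 to 94.4 CPM, Cd151 at 19.4 to 24.3 CPM and Itgb4 at 15.4 to 24.5 CPM. Among 10 tested basal cell regulators and surface markers, 5 were positive and 5 negative (median 0.00088). Those with the most CPM were Sox9 at 168 to 252 CPM, Itgb1 at 77.2 to 88.4 CPM and Cd44 at 59.2 to 98.9 CPM. Whether these 3 mark basal cells in this gland was not tested. Trp63, the basal cell transcription factor, was among the negative ones (log2 fold change -0.16). Of 13 epithelial surface genes 6 were positive and 7 negative (median -0.13), led by Ehf at 423 to 545 CPM, Epcam at 172 to 300 CPM and Cdh1 at 184 to 214 CPM. Among 12 tested keratin regulators and other filament genes, with Krtcap2 counted among them, 11 were positive and 1 negative (median 0.27). The positive share of all tested genes was 48.3%. Of the list's 13 genes, 8 were lowest in 8-week replicate 2, 4 in 8-week replicate 1 and 1 in 32-week replicate 4. Lmna stood at 24.4 to 35.0 CPM and Vim, the mesenchymal filament protein, at 18.2 to 38.7 CPM. Krtcap2, which is neither a filament gene nor a known keratin regulator, stood at 222 to 303 CPM.

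The genes whose pattern over the 4 libraries lay nearest to that of the keratins were of other kinds. Likeness was the root mean square difference between profiles of log2(CPM + 0.1), each centred on its mean over the 4 libraries, among 6679 genes with a mean of at least 10 CPM. For the mean luminal profile (-0.41, 0.30, -0.14 and 0.25 in replicates 1 to 4) these were Gna11 (0.0374), Xab2 (0.0433) and Csrp1 (0.0492). For the mean basal profile (-0.35, 0.09, 0.01 and 0.24) they included Tsc2 (0.0191) and Flna (0.0252). With only 4 libraries this is a description and no measure of a relation. The luminal profile rests largely on its most variable member, Krt19. Krt15, the most variable basal member, weighs most in 8-week replicate 1, at -0.996. In 32-week replicate 4 it was 0.10, below Krt14 (0.36) and Krt17 (0.33).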

How the data were processed

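Per the labels' protocols, Trizol RNA of flash-frozen glands went into Illumina TruSeq libraries. The authors aligned reads with STAR to mm9, per the submitters' processing notes. How reads were counted (tool, annotation, strand, multi-mapping) is not given in the sources used. The authors deposited raw counts per gene symbol. From these counts edgeR 4.0.16 (R 4.3.3) computed the age comparison by its quasi-likelihood test (TMM scaling, filterByExpr by age) and Benjamini-Hochberg adjustment over 12810 genes at 0.05, with age as the only term; DESeq2 1.42.0 and limma-voom (limma 3.58.1) were alternatives. The script was tested on simulated data. With 2 libraries against 2, no exact permutation test can give a p below 0.333. Transcripts, lengths and positions came from GENCODE vM1 on NCBIM37, and all 8 members matched by symbol. Exact 50-base and 100-base windows were searched on both strands of that genome. Scores used log2(CPM + 0.1) and carry no p.

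The members and gene lists were chosen with earlier results of these data known. The rule for named genes was the 8 members, up to 3 genes with the highest mean CPM in each list, genes of other tissues at 0, and the 3 genes most like each class. Smr3a, Krt6a, Krt13, Krt1, Krt4, Krtdap, Lor, Upk1b, Wt1, Oxtr, Dsg3, Dsc3 and Pkp1 were named after their values were seen. So were Klk1b9, Klk1b22, Ltf, Spdef, Gstt1, Kcnn4, Elf5, Clic6 and the other epithelial keratins at 0 in every library. The third gene most like the basal class and some member sequences are not reported here.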

Additional observations from a re-analysis of the deposited data

How the results depend on the processing

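No paired analysis was possible because the 2 ages share no replicate number. The keratin count stayed at 0 of 8 under every alternative run. Over all genes the count was 10 with total counts only, 7 with no low-count filter and 3 with DESeq2, against 0 in the main test, and 0 with RLE factors, without the 10 most abundant genes, with at least 1 CPM in 3 libraries and with limma-voom. With single libraries left out it was 6 to 285, in the order of replicates 1 to 4 left out 285, 6, 11 and 17; the single library then left at an age is assumed to vary like the other age. Of 88 combinations of a keratin and an alternative, 78 kept the direction and 10 reversed it. Krt5 was -0.034 with total counts only and Krt19 0.14 with limma-voom. The cause was not tested. With libraries left out in turn the log2 fold change ran from -0.12 to 0.19 for Krt5, -0.52 to 0.32 for Krt7, -0.18 to 0.43 for Krt14, -0.15 to 0.47 for Krt17 and -1.02 to 1.5 for Krt19. The luminal minus basal log2 difference between the ages ran from -0.27 to -0.0079 over its alternatives, and the log2 of the ratio of sums from -0.10 to 0.32, turning negative without 8-week replicate 2 (-0.085) and without 32-week replicate 3 (-0.10). The length over windows found nowhere else was added after seeing the data. Krt15 had the fewest counts of the 8 keratins, at 7 to 26, and no test of depth was run. Total counts only moved the median of all genes to -0.096.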
